A study of Danio rerio with 18 samples.

Results

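Cadherins, catenins, claudins, protocadherins and zonula occludens proteins hold the cells of an embryo together. Their genes were taken by symbol from the array's probe annotation: single symbols that start with pcdh, cldn or ctnn, or with cdh or tjp and a digit. This gave 48 of the 8793 genes with a probe set of 1 symbol: 8 cadherins, 7 catenins, 24 claudins, 7 protocadherins and 2 zonula occludens genes. The 48 genes had 62 probe sets, and each of the 10 genes with several was represented by its brightest, by mean over the 18 arrays. The rule itself uses only symbols and mean levels, but it was chosen with earlier results of these data known.

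Classical cadherins span the membrane of neighbouring cells and bind each other across the gap. Inside the cell, beta-catenin and p120 catenin bind the cadherin tail, and alpha-catenin links the complex to actin. Beta-catenin that is not held at the membrane also enters the nucleus and switches on Wnt target genes. Claudins are the membrane proteins that seal tight junctions between epithelial cells, and zonula occludens proteins are the scaffolds beneath them. In the zebrafish, E-cadherin (cdh1) is needed for the spreading and internalization movements of gastrulation, and N-cadherin (cdh2) for the shaping of the neural tube. The outer sheet of the blastula, the enveloping layer, is the first epithelium with tight junctions.

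The study blocked the microRNA mir-34 with a locked nucleic acid (LNA), a modified oligonucleotide that pairs tightly with a small RNA, and asked what changed in the RNA of early embryos. Wild-type zebrafish embryos (strain: not given in the sources used here) received anti-mir-34 LNA or a mock LNA at the 1 to 2 cell stage and were kept at 30 C. Whole embryos were harvested 1, 7 or 24 hours after fertilization (hpf), with the chorion removed manually from the 2 older ages. Each of the 6 groups (mock or anti-mir-34 LNA at 1, 7 or 24 hpf) had 3 Affymetrix arrays, 18 in all. All groups were injected, so nothing here compares injected with uninjected embryos. By their labels the arrays of a group are biological replicates. The number of embryos in a sample is likewise unstated, and p-values measure the spread between these samples. The arrays measure mRNA, so mir-34 itself was not measured.

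Values are the deposited log2 values, in which 1 unit is a factor of 2. The median of an array was 3.68 to 3.69, 25% of all values were above 5.78 and 10% above 7.17. Where the readings of a group lie below the array median, a log2 difference from it has no exact size. This limit holds for every gene below, whether or not it is repeated there. The list of maternal genes had a median level of 8.47 to 9.05 on the 1 hpf arrays, the gastrula list one of 5.07 to 7.16 on the 7 hpf arrays, and the list of one-day embryo genes one of 9.54 to 9.79 on the 24 hpf arrays. Mock arrays stood apart at both later ages. At 7 hpf the gastrula list had a median of 5.07 in mock replicate 2, against 6.09 and 6.68 in replicates 1 and 3. At 24 hpf the maternal list had a median of 2.94 in mock replicate 2, against 1.36 and 0.08. Results that rest on either array are given with and without it. The difference between the 3′ and 5′ GAPDH control probe sets, a measure of RNA integrity, was 0.99 to 1.77 at 24 hpf and between -1.40 and 0.78 at the younger ages. It moved with the step from 7 to 24 hpf, and its part in the results of that step was not tested.

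Junction genes rose more often than they fell between 1 and 7 hpf. In mock embryos 14 of the 48 genes rose and 3 fell (limma, adjusted p below 0.05 over 15502 probe sets). Those are 29.2% and 6.25% of the members, where 13.6% of all probe sets rose and 10.4% fell, or 14.3% and 13.8% of all genes at 1 probe set each. In anti-mir-34 embryos 16 rose and 6 fell, 33.3% and 12.5%, against 19.4% and 20% of all probe sets and 19.8% and 25.4% of all genes. The median log2 difference of the members was 0.40 in mock and 0.47 in anti-mir-34 embryos, and that of all genes was -0.22 and -0.33. After adding 16 to each signal ahead of taking logarithms, which damps low levels, 14 rose and 6 fell in mock embryos. In that setting 1968 of all 15502 probe sets rose and 2309 fell. The arrays of 1 and 7 hpf did not overlap for 26 members in mock and 24 in anti-mir-34 embryos. Among all probe sets, 40.4% and 49.7% did not overlap either, so separate arrays of a gene named below were common.

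From 7 to 24 hpf, 14 members rose and 9 fell in mock embryos. These shares of 29.2% and 18.8% stood beside 19.5% and 23.5% of all probe sets and 20.5% and 28.4% of all genes. In anti-mir-34 embryos 11 rose and 7 fell (22.9% and 14.6%), where 16.5% of probe sets rose and 19.4% fell, and 18.4% and 23.6% of genes. With 16 added to the signals, 12 rose and 12 fell in anti-mir-34 embryos, where 2930 of all 15502 probe sets rose and 2893 fell. The member medians were 0.33 and 0.26, and those of all genes were -0.20 and -0.16. The arrays of 7 and 24 hpf did not overlap for 26 members in mock and 32 in anti-mir-34 embryos, where 52.4% and 52% of all probe sets did not. In RNA of whole embryos, fewer cells of a type and less RNA per cell cannot be told apart.

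The calls of the 2 injections were set side by side. Of the 14 risers of the first step in mock embryos, 11 (78.6%) were also among the 16 of anti-mir-34 embryos (68.8% of those). Of the second step's 14 mock risers, 11 (78.6%) rose in anti-mir-34 embryos, which were all 11 called there. The fallers overlapped in 1 of 3 and 6 genes at the first step and in 5 of 9 and 7 at the second. No member was called in opposite directions by the 2 injections. The same overlap was not counted over all genes, so these shares show nothing particular to junction genes.

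**Figure D1:**
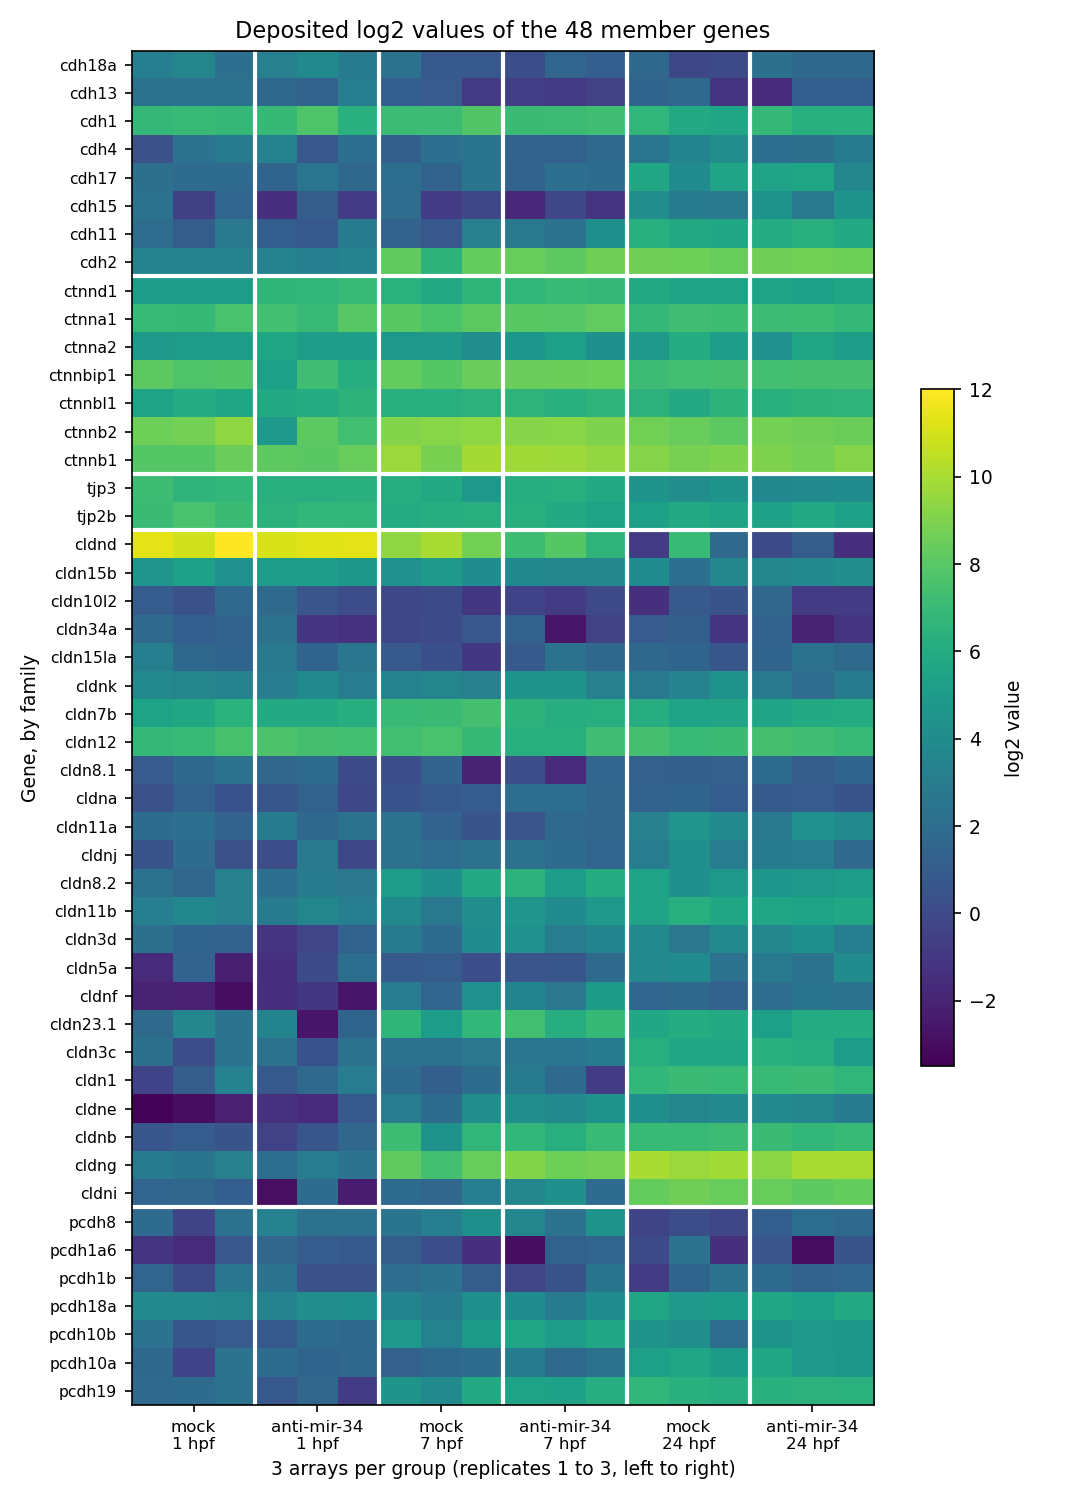
Deposited log2 values (colour) of the 48 genes (rows, by family and, within a family, by the fall from 1 to 24 hpf) on the 18 arrays (columns, 3 per group). The lower rows of the cadherins, claudins and protocadherins brighten with age, and cldnd, at the top of the claudins, goes from about 11 at 1 hpf to low values on most 24 hpf arrays.

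N-cadherin RNA rose in the first step and E-cadherin RNA fell in the second in mock embryos. The N-cadherin gene cdh2 read 3.42, 3.43 and 3.29 on the mock arrays of 1 hpf and 8.19, 6.55 and 8.36 at 7 hpf. At 24 hpf it read 8.67, 8.57 and 8.38. It thus left the range of low values in the first step, with replicate 2 of 7 hpf below the other arrays of its group. The rise to 7 hpf was 4.32 (SE 0.32, adjusted p = 5.71e-09) in mock embryos. In anti-mir-34 embryos cdh2 read 3.33, 3.18 and 3.46 at 1 hpf, 8.39, 8.18 and 8.64 at 7 hpf and 8.64, 8.72 and 8.59 at 24 hpf, and rose by 5.08 (adjusted p = 3.35e-10) in the first step. The second step of cdh2 in mock embryos was 0.84 (adjusted p = 0.041). It was 0.27 (adjusted p = 0.363) without mock replicate 2 of 7 hpf, and the call was also lost without any of the mock arrays of 24 hpf (adjusted p of 0.0595 to 0.107). In anti-mir-34 embryos the second step was 0.25 (adjusted p = 0.6). The weaker probe set of cdh2 differed by 1.60 in the first mock step, which did not pass, and rose by 2.43 in the second.

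The E-cadherin gene cdh1 was present throughout. Mock embryos had 6.82, 7.03 and 6.84 at 1 hpf, 7.13, 7.15 and 7.80 at 7 hpf, and 6.73, 5.87 and 5.60 at 24 hpf. All mock arrays of 24 hpf lay below those of 7 hpf, and cdh1 fell by 1.29 (SE 0.32, adjusted p = 0.00276). Anti-mir-34 embryos had 6.91, 7.70 and 6.33, then 7.08, 7.15 and 7.24, and at 24 hpf 6.84, 6.22 and 6.22. The anti-mir-34 groups of 7 and 24 hpf did not overlap either, and the difference of -0.73 did not pass (adjusted p = 0.0858). In a fit on those groups alone it did (adjusted p = 0.0196). The difference between the 2 injections in this step was 0.57 (adjusted p = 0.759).

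Within each array, cdh2 minus cdh1 gives the change in balance between the genes. Only its change with age is read here, since levels of different probe sets are not comparable. It read -3.40, -3.60 and -3.55 on the mock arrays of 1 hpf, 1.06, -0.60 and 0.55 at 7 hpf, and 1.94, 2.69 and 2.78 at 24 hpf. On the anti-mir-34 arrays it read -3.57, -4.53 and -2.88, then 1.31, 1.04 and 1.41, then 1.81, 2.49 and 2.38. No array of one age overlapped with the next age within an injection. Over both injections the balance moved by 4.38 from 1 to 7 hpf and by 1.55 from 7 to 24 hpf. Each gave p = 0.00216 in a two-sided exact permutation test of 6 against 6 arrays, the smallest p such a test allows. After adjustment over the 9 comparisons made it was 0.00972. That test shuffled the arrays without regard to injection. The changes by injection were 3.85 and 2.13 in mock and 4.91 and 0.97 in anti-mir-34 embryos. Within an injection (3 against 3) the exact permutation p was 0.1 at every step, which is the smallest possible there.

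Further cadherins read higher at 24 hpf than at 7 hpf. The gene cdh11, a cadherin of mesenchymal cells in mammals, read 1.40, 0.71 and 3.24 on the mock arrays of 7 hpf and 6.27, 5.92 and 5.77 at 24 hpf. It rose by 4.21 in mock embryos (adjusted p = 2.58e-05) and by 2.97 in anti-mir-34 embryos (adjusted p = 0.00116). The gene cdh17, whose RNA marks the kidney ducts in zebrafish, read 2.13, 1.42 and 2.54 and then 5.82, 3.95 and 5.57. Its rise was 3.09 in mock (adjusted p = 0.000188) and 3.05 in anti-mir-34 embryos (adjusted p = 0.000291). M-cadherin, cdh15, a cadherin of muscle cells, read 2.03, -0.78 and -0.17 at 7 hpf and 4.16, 2.97 and 2.70 at 24 hpf in mock embryos. All of these cdh15 readings but 4.16 lay below the array median of 3.68 to 3.69, where a log2 difference has no exact size. All 3 genes had 24 hpf arrays above every 7 hpf array of the same injection. The arrays of these ages did not overlap, in either direction, for 52.4% of all probe sets in mock and 52% in anti-mir-34 embryos. The rise of cdh15 was 2.91 in mock (adjusted p = 0.0126) and 4.87 in anti-mir-34 embryos (adjusted p = 0.00026). The mock call of cdh15 was lost without mock replicate 2 of 7 hpf (2.34, adjusted p = 0.0714) or replicate 1 of 24 hpf (2.47, adjusted p = 0.0619).

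Low and unsteady readings marked the other cadherins. R-cadherin, cdh4, had group means between 1.50 and 3.40 and passed in no comparison. The genes cdh13, a cadherin anchored to the membrane by a lipid and without a catenin-binding tail, and cdh18a fell between 1 and 7 hpf in anti-mir-34 embryos, by 2.76 and 2.42. Their mock differences were -1.89 and -1.61 and did not pass. All group means of both genes lay below the array median, and with 16 added the 2 anti-mir-34 differences were -0.32 and -0.56, both still past the threshold. The cdh13 call was lost without anti-mir-34 replicate 3 of 1 hpf (-2.23, adjusted p = 0.0811).

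**Figure D2:**
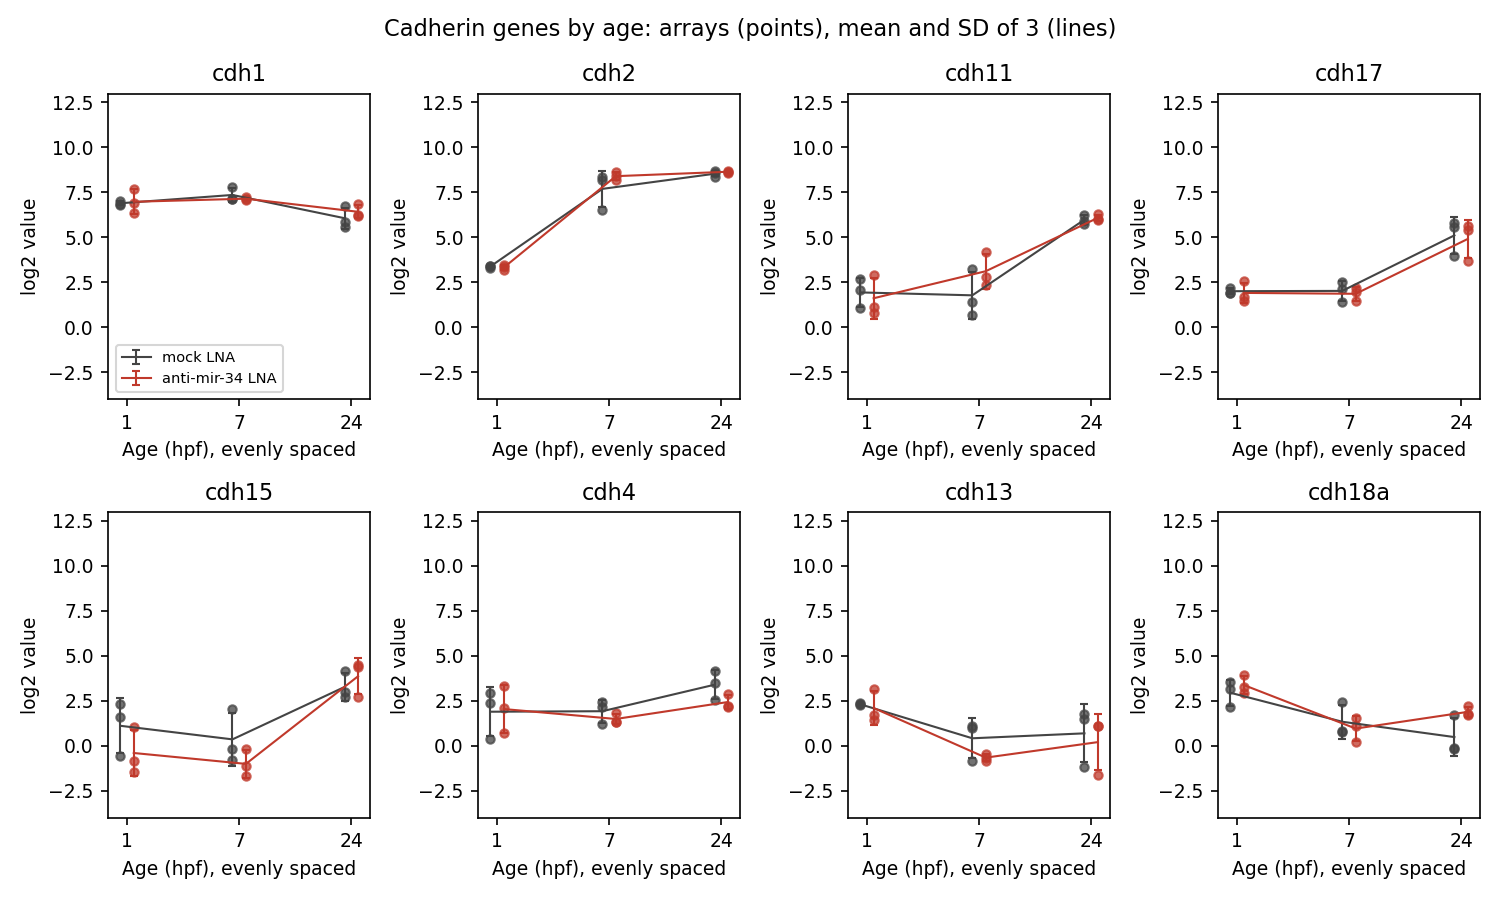
The 8 cadherin genes: log2 value (vertical) against age (horizontal, ages evenly spaced) for mock (grey) and anti-mir-34 embryos (red). Points are arrays, lines join group means and bars are SDs of 3 arrays. The cdh2 lines climb from about 3.3 to about 8 by 7 hpf, while cdh11, cdh17 and cdh15 reach their highest means at 24 hpf.

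Catenin RNA was present at 1 hpf, and the catenins called in mock embryos rose to 7 hpf or fell after it. Of the 7 genes, 3 rose in the first mock step and none fell, and in the second 3 fell and none rose. In these steps 14.3% and 20.5% of all genes rose, and 13.8% and 28.4% fell. Both steps use the same 7 hpf arrays, so a high value there raises the first difference and lowers the second. Beta-catenin 1 (ctnnb1) read 7.90, 7.94 and 8.45 on the mock arrays of 1 hpf and 9.66, 8.88 and 9.93 at 7 hpf, then 9.17, 8.82 and 8.97. It rose by 1.39 (SE 0.23, adjusted p = 0.000151) in mock and by 1.48 (adjusted p = 4.36e-05) in anti-mir-34 embryos. Its second step was -0.50 in mock (adjusted p = 0.0906) and -0.67 in anti-mir-34 embryos (adjusted p = 0.0298). The latter call was lost without replicate 1 or 2 of either age (adjusted p of 0.0648 to 0.124).

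Alpha-catenin (ctnna1) and p120 catenin (ctnnd1), which stabilizes cadherins at the membrane, rose and fell in mock embryos. The mock arrays of ctnna1 read 7.03, 6.91 and 7.56, then 8.06, 7.58 and 8.09, then 6.83, 7.26 and 7.16. Its steps were 0.75 (adjusted p = 0.0367) and -0.83 (adjusted p = 0.0119), and in anti-mir-34 embryos 0.66 (adjusted p = 0.0437) and -1.05 (adjusted p = 0.00278). The first-step call of ctnna1 was lost in either injection without some single arrays, with adjusted p up to 0.133 without mock replicate 2 and 0.222 without anti-mir-34 replicate 2 of 1 hpf. Its second mock call was lost without replicate 1 of 24 hpf (-0.70, adjusted p = 0.0577). The mock arrays of ctnnd1 read 5.20, 5.17 and 5.19, then 6.38, 5.83 and 6.65, then 5.91, 5.50 and 5.47. Every 7 hpf array of ctnnd1 was above every 1 hpf array, and the steps were 1.1 (adjusted p = 0.00206) and -0.66 (adjusted p = 0.0337). The second call of ctnnd1 in mock embryos was lost with any of 4 arrays left out, the lowest size being -0.48 (adjusted p = 0.146) without mock replicate 3 of 7 hpf.

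Of the other 4 catenins, 1 was called in mock embryos. ICAT (ctnnbip1), a small inhibitor that keeps beta-catenin from its DNA-binding partners, read 8.06, 7.71 and 7.81 at 1 hpf, 8.35, 7.89 and 8.48 at 7 hpf and 7.11, 7.31 and 7.40 at 24 hpf. It fell by 0.97 (adjusted p = 0.0183) in the second mock step and by 1.1 (adjusted p = 0.0103) in the anti-mir-34 one. The mock call was lost without mock replicate 1 of 24 hpf or replicates 1 or 3 of 7 hpf (adjusted p of 0.0578 to 0.0629). Beta-catenin 2 (ctnnb2), whose maternal RNA founds the dorsal axis in zebrafish, read 8.59, 8.76 and 9.44 at 1 hpf and 9.15, 9.27 and 9.37 at 7 hpf in mock embryos. The mock arrays of 24 hpf read 8.67, 8.39 and 8.12 for ctnnb2, and neither step passed (0.33 and -0.86, adjusted p = 0.666 and 0.161). Neuronal alpha-catenin (ctnna2) had group means of 4.56 to 5.37, and ctnnbl1, a splicing-associated protein related to beta-catenin, of 5.78 to 6.50. Neither passed in any comparison.

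In the main fit, the members with an injection difference that passed were 3 catenins at 1 hpf. This is 6.25% of the 48 genes, against 1.23% of all probe sets and 1.58% of all genes. Without anti-mir-34 replicate 2 of 1 hpf, cldni (-4.04, adjusted p = 0.0004) and pcdh19 (-2.05, adjusted p = 0.0323) were also called lower at that age. Of all 15502 probe sets, 103 were higher and 365 lower in that fit. The arrays of ctnnb2 read 4.85, 8.09 and 7.33 in anti-mir-34 embryos at 1 hpf, all below the mock readings given above. It was lower by 2.17 on the log2 scale (-2.17, SE 0.48, adjusted p = 0.0246), with replicate 1 far below the other arrays. The arrays of ctnnbip1 read 5.27, 7.25 and 6.16, again all below the mock arrays and lowest in replicate 1 (-1.63, SE 0.32, adjusted p = 0.0113). The arrays of ctnnd1 read 6.64, 6.68 and 7.01, all above the mock arrays, which lay within 5.17 to 5.20 (1.60, SE 0.24, adjusted p = 0.00236).

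These catenin differences did not all rest on the same footing. The ctnnd1 call held with any array left out, while ctnnb2 lost its call without any of the mock arrays of 1 hpf (adjusted p of 0.054 to 0.106). ICAT lost its call without mock replicate 1 of 1 hpf (-1.53, adjusted p = 0.0558). Without anti-mir-34 replicate 1 the ctnnb2 difference was -1.22 (adjusted p = 0.0235), and that of ctnnbip1 was -1.15 (adjusted p = 0.0399). A fit on the 1 hpf groups alone called none of the 3 (adjusted p of 0.201 for ctnnd1, 0.351 for ctnnbip1 and 0.454 for ctnnb2). That fit called none of all 15502 probe sets, so its lack of calls is not particular to these genes. Among the 125 probe sets called lower at 1 hpf, 106 had their lowest anti-mir-34 reading in replicate 1. Their median level was 4.49 there, 5.83 in replicate 2 and 5.43 in replicate 3. These probe sets were called from the same readings, which favours those with a low array. The share over all probe sets was not counted, so whether replicate 1 read low in general was not tested.

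At 7 hpf no catenin passed between the injections. At that age ctnnb2 read 9.21, 9.27 and 8.99 in anti-mir-34 embryos, and ctnnbip1 read 8.45, 8.49 and 8.56. Their differences from mock were -0.11 and 0.26, with adjusted p = 0.946 and 0.763. From their low start these genes rose in the first anti-mir-34 step, ctnnb2 by 2.40 (adjusted p = 0.000504) and ctnnbip1 by 2.27 (adjusted p = 1.09e-05). The same anti-mir-34 arrays of 1 hpf gave the injection difference, so a low value there enters both results. Without anti-mir-34 replicate 1 of 1 hpf the rise of ctnnb2 was 1.45 (adjusted p = 0.000184). The arrays of ctnnd1 in anti-mir-34 embryos read 6.72, 7.02 and 6.79 at 7 hpf, all above the mock arrays of that age, a difference of 0.56 that did not pass (adjusted p = 0.36). Its first anti-mir-34 step was 0.06 (adjusted p = 0.855), and then it fell by 1.37 (adjusted p = 0.000172). The test of the difference between the 2 injections' first steps gave 2.07 for ctnnb2, 1.89 for ctnnbip1 and -1.04 for ctnnd1, with adjusted p = 0.217, 0.082 and 0.219.

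**Figure D3:**
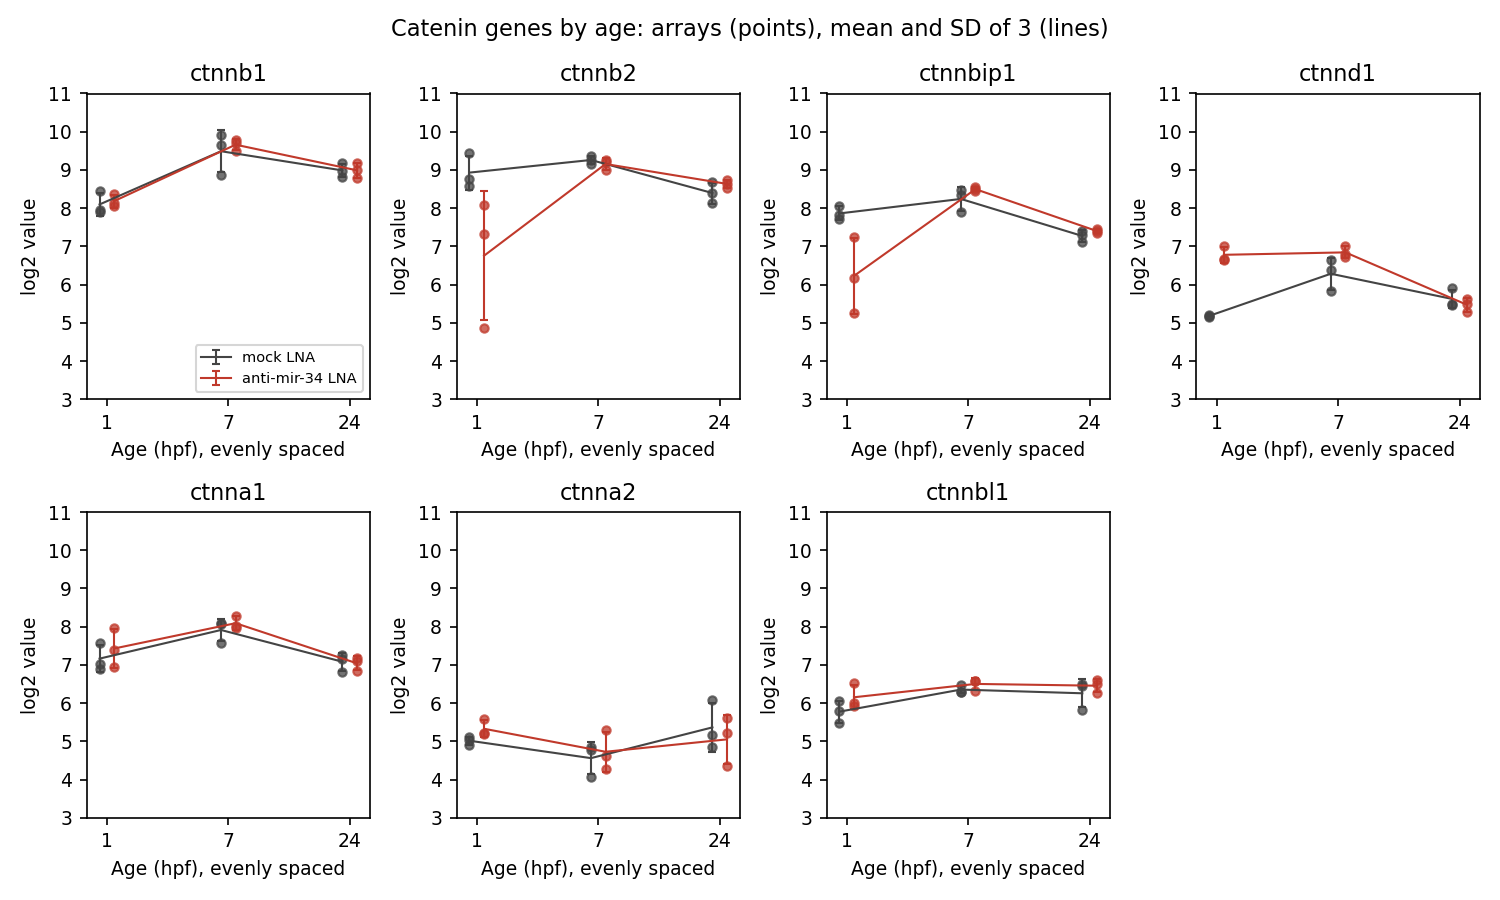
The 7 catenin genes: log2 value (vertical) against age (ages evenly spaced) for mock (grey) and anti-mir-34 embryos (red), with arrays as points and group means with SDs of 3 arrays as lines. The injections part at 1 hpf for ctnnb2, ctnnbip1 and ctnnd1 and meet by 24 hpf.

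Across all 48 genes, no injection difference passed at 7 or 24 hpf, where 0.0129% of all probe sets did at each age. Unadjusted p was below 0.05 for 7 members at 7 hpf and 3 at 24 hpf, and for 8 at 1 hpf. Of all 15502 probe sets, 1926, 686 and 1524 had such a p at 7, 24 and 1 hpf. The arrays of the injections did not overlap for 10, 7 and 5 members at 1, 7 and 24 hpf. Over all probe sets these shares were 12.7%, 15.6% and 9.18%. No member's age step differed between the injections either, against 0.271% of probe sets for the first step and 0% for the second. Unadjusted p was below 0.05 for 10 and 5 members in those tests, and for 1834 and 1333 of all 15502 probe sets. Without anti-mir-34 replicate 2 of 1 hpf, ctnnbip1, ctnnb2, cldni and pcdh19 passed for the first step (2.40, 2.73, 5.07 and 2.93). Without mock replicate 3 of 7 hpf, ctnnbip1 and pcdh19 did (2.01 and 2.96). Of all 15502 probe sets, 164 were called higher and 47 lower in the former fit, and 73 and 104 in the latter.

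Of the 24 claudins, 7 rose and 1 fell in the first mock step, where 13.6% of all probe sets rose and 10.4% fell. In the second 7 rose and 3 fell, where 19.5% and 23.5% of probe sets did. In neither mock step was a call made for 8 of the 24. The risers of the first step were cldnb, cldne, cldnf, cldng, cldn7b, cldn8.2 and cldn23.1. Those of the second were cldn1, cldn3c, cldn5a, cldn11a, cldn11b, cldng and cldni. Only cldng was in both mock sets.

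The gene cldnb, expressed in zebrafish epithelia including the lateral line, read 0.63, 0.99 and 0.52 on the mock arrays of 1 hpf and 7.18, 4.47 and 6.70 at 7 hpf. It then read 6.97, 6.93 and 7.16. Its arrays jumped in the first step, with replicate 2 of 7 hpf the lowest of its group, and then stayed within the 7 hpf range. The rise was 5.40 (adjusted p = 2.79e-07) in mock and 6.06 (adjusted p = 3.4e-08) in anti-mir-34 embryos. The gene cldne, which zebrafish need for the normal spreading of the enveloping layer, read -3.32, -2.93 and -2.06 at 1 hpf and 3.04, 1.99 and 4.15 at 7 hpf in mock embryos. It read 4.20, 3.56 and 3.77 at 24 hpf. Its neighbour cldnf read -1.98, -2.06 and -2.93, then 3.08, 1.56 and 4.32, then 1.53, 1.75 and 1.38. Both rose in the first step, by 5.83 and 5.31 in mock embryos and by 4.87 and 5.38 in anti-mir-34 embryos. Their 1 hpf readings lay far below the array median, where a log2 difference has no exact size. With 16 added to the signals the mock rises were 0.65 for cldne and 0.66 for cldnf, and both still passed (adjusted p = 0.0032 and 0.0185).

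The claudins that rose first also included genes of higher starting level. The gene cldn23.1 read 1.84, 3.65 and 2.38 at 1 hpf and 6.66, 5.06 and 6.74 at 7 hpf in mock embryos, a rise of 3.53 (adjusted p = 0.00807). In anti-mir-34 embryos it read 3.49, -2.64 and 1.51 and then 7.33, 6.18 and 6.90, a rise of 6.01. All 1 hpf readings of cldn23.1 lay below the array median, so neither rise has an exact size. The lower anti-mir-34 start came mostly from replicate 2 of 1 hpf, without which the rise was 4.30. The gene cldn8.2 rose by 2.73 in mock and 3.37 in anti-mir-34 embryos. The gene cldn7b, of an epithelial claudin family, read 5.51, 5.71 and 6.39, then 6.92, 7.05 and 7.44, then 6.15, 5.52 and 5.58 in mock embryos. It was thus high only at 7 hpf, rising by 1.26 (adjusted p = 0.00133) and falling by 1.39 (adjusted p = 0.000266). Its weaker probe set differed by 0.58 in the first step, which did not pass, and fell by 1.49 in the second. In anti-mir-34 embryos cldn7b read 5.97, 5.98 and 6.13, then 6.53, 6.14 and 6.29, then 5.55, 5.95 and 6.01, and neither step passed (0.29 and -0.48). The difference between the injections was -0.97 for the first and 0.91 for the second step, with adjusted p = 0.296 and 0.514.

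Markers of the outer cell layer also rose in the first step, where 14.3% of all genes rose and 13.8% fell in mock embryos. Of 9 keratins, annexins and other genes of the enveloping layer and epidermis, 8 rose in the first mock step and none fell. Their median level lay between 0.44 and 2.27 on the 1 hpf arrays, between 8.67 and 10.41 at 7 hpf and between 8.68 and 8.91 at 24 hpf. Mock replicate 2 of 7 hpf was the lowest of its group both in that list (8.67, against 9.79 and 10.41) and in 12 of the 14 members that rose in mock embryos. Replicate 3 was the highest in 13 of the 14. Without replicate 2 of 7 hpf and replicate 2 of 24 hpf, 13 members rose and 4 fell in the first mock step. Of 15501 probe sets, 2168 rose and 1815 fell in that fit. Among the anti-mir-34 arrays of 7 hpf, replicate 2 was the lowest in 12 of 16 risers. The gastrula list, which is not one of the outer layer, had the same order on the mock arrays of 7 hpf (6.09, 5.07 and 6.68). These orders were not counted over all probe sets that rose, so they show nothing particular to junction genes or the outer layer. The part of outer-layer cells in these rises was not tested.

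In the second step the largest claudin rises were those of cldni and cldn1. The gene cldni read 1.90, 1.65 and 3.17 on the mock arrays of 7 hpf and 8.31, 8.61 and 8.41 at 24 hpf. It rose by 6.21 (adjusted p = 5.86e-06), the largest rise of a member in this step. In anti-mir-34 embryos cldni read -2.88, 1.92 and -2.32 at 1 hpf, 3.60, 4.31 and 1.90 at 7 hpf and 8.41, 8.15 and 8.34 at 24 hpf. It was called in both anti-mir-34 steps, 4.36 and 5.03, the first from readings spread over more than 4 log2 units. The gene cldn1, a claudin of the skin barrier in mammals, read 1.89, 1.19 and 1.96 at 7 hpf and 6.79, 7.05 and 6.98 at 24 hpf in mock embryos. Its rise was 5.26 (adjusted p = 3.21e-05) in mock and 5.59 (adjusted p = 2.21e-05) in anti-mir-34 embryos. For both genes no 24 hpf array came near the younger ones.

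Smaller rises followed in other claudins. The gene cldn3c read 2.28, 2.26 and 2.64 at 7 hpf and 6.26, 5.82 and 5.73 at 24 hpf in mock embryos and rose by 3.54 (adjusted p = 5.15e-05). The pair cldn11a and cldn11b, related to a mammalian claudin of myelin, rose by 2.52 and 2.26 in mock and by 2.25 and 1.17 in anti-mir-34 embryos. The anti-mir-34 call of cldn11b was lost without replicate 2 of 7 hpf or replicate 3 of 24 hpf (adjusted p = 0.0947 and 0.0616). The gene cldn5a, a claudin of blood vessels and brain ventricles, read 0.88, 1.03 and 0.19 and then 3.79, 4.06 and 2.28. Its mock rise was 2.68 (adjusted p = 0.0233) and was lost without mock replicate 3 of 7 hpf or replicate 1 or 2 of 24 hpf (adjusted p of 0.0704 to 0.0876). Its anti-mir-34 difference was 2.01 (adjusted p = 0.0969). Of its weaker probe sets, 1 rose by 3.34 in the second mock step and the other differed by 2.63, which did not pass.

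The claudin cldnd ran the other way. It read 11.39, 10.86 and 11.99 on the mock arrays of 1 hpf, 9.41, 10.05 and 8.69 at 7 hpf and -0.78, 6.98 and 1.86 at 24 hpf. In anti-mir-34 embryos it read 11.09, 11.25 and 11.36, then 7.18, 7.92 and 6.59, then 0.01, 1.1 and -1.43. The ages did not overlap in either injection, and the single high reading at 24 hpf was in mock replicate 2, the array with the highest maternal list. The second step was -6.69 (SE 1.12, adjusted p = 6.72e-05) in mock and -7.34 (adjusted p = 3.35e-05) in anti-mir-34 embryos. Without mock replicate 2 of 24 hpf the mock fall was -8.84 (adjusted p = 8.56e-09). The first step was -4.0 (adjusted p = 0.00725) in anti-mir-34 embryos. In mock embryos it was -2.03 (adjusted p = 0.206), and -2.37 (adjusted p = 0.0132) without the 2 mock arrays that stood apart. With both mock groups whole, this step passed with 16 added to the signals (adjusted p = 0.008). It also passed in a fit on those groups alone (SE 0.40 against 1.12 in the main fit, adjusted p = 0.00552). Quantile normalization and a replicate block gave no pass (adjusted p = 0.166 and 0.156). Nor did the filter on dim probe sets or eBayes without a trend (adjusted p = 0.17 and 0.291). The step also did not pass with any 1 of its mock arrays left out (adjusted p of 0.189 to 0.426). At 7 hpf every anti-mir-34 array of cldnd lay below every mock array, a difference of -2.15 that did not pass (adjusted p = 0.439).

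Few other claudins fell. The gene cldn15b read 4.33, 4.85 and 4.03 at 7 hpf and 4.03, 2.15 and 3.68 at 24 hpf in mock embryos. Its fall of 1.11 (-1.11, adjusted p = 0.0389) was -0.55 (adjusted p = 0.278) without mock replicate 2 of 24 hpf, and the call was also lost without replicate 1 or 2 of 7 hpf (adjusted p = 0.074 and 0.15). The gene cldn15la, a claudin of gut epithelium in zebrafish larvae, read 3.14, 1.74 and 1.50 at 1 hpf and 0.84, 0.26 and -1.0 at 7 hpf. These cldn15la readings all lay below the array median, where a log2 difference has no exact size. The gene fell by 2.09 (adjusted p = 0.0258), and the call was lost without mock replicate 1 of 1 hpf or replicate 3 of 7 hpf (adjusted p = 0.14 and 0.146). The gene cldn12 had group means of 6.60 to 7.45 and a called difference only in the first anti-mir-34 step (-0.85, adjusted p = 0.0159), which was lost with any of 3 arrays left out (adjusted p of 0.0582 to 0.0838). The myelin claudin cldnk read 4.47, 4.39 and 3.24 and then 2.76, 2.04 and 2.92 in anti-mir-34 embryos, and fell by 1.46 (adjusted p = 0.0197) there, a call lost without any of 3 arrays (adjusted p of 0.0795 to 0.0922). Its mock difference in the same step was 0.14.

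Genes that lie side by side on a chromosome were compared next. On assembly GRCz12tu, by RefSeq's gene table, cldn3c, cldn3d, cldnb and cldnd lie in this order on chromosome 21, with 1 other coding gene between them. Of these cldnb rose early, cldn3c late and cldnd fell, while cldn3d rose only in the first anti-mir-34 step (3.64, adjusted p = 0.000149; mock 1.22, adjusted p = 0.187). On chromosome 15, cldnj, cldne, cldnf and cldna lie side by side with no other coding gene between them. There the neighbours cldne and cldnf had the same calls in every comparison. Neither cldnj, with mock means of 0.93, 2.19 and 3.41 at the 3 ages, nor cldna, with 0.69, 0.74 and 1.30, passed in any comparison. The adjacent pair cldn8.2 and cldn8.1 also differed, since cldn8.1 had group means from -0.14 to 1.67 and no call. Also without a call were cldn10l2 and cldn34a, with no group mean above 1.47.

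**Figure D4:**
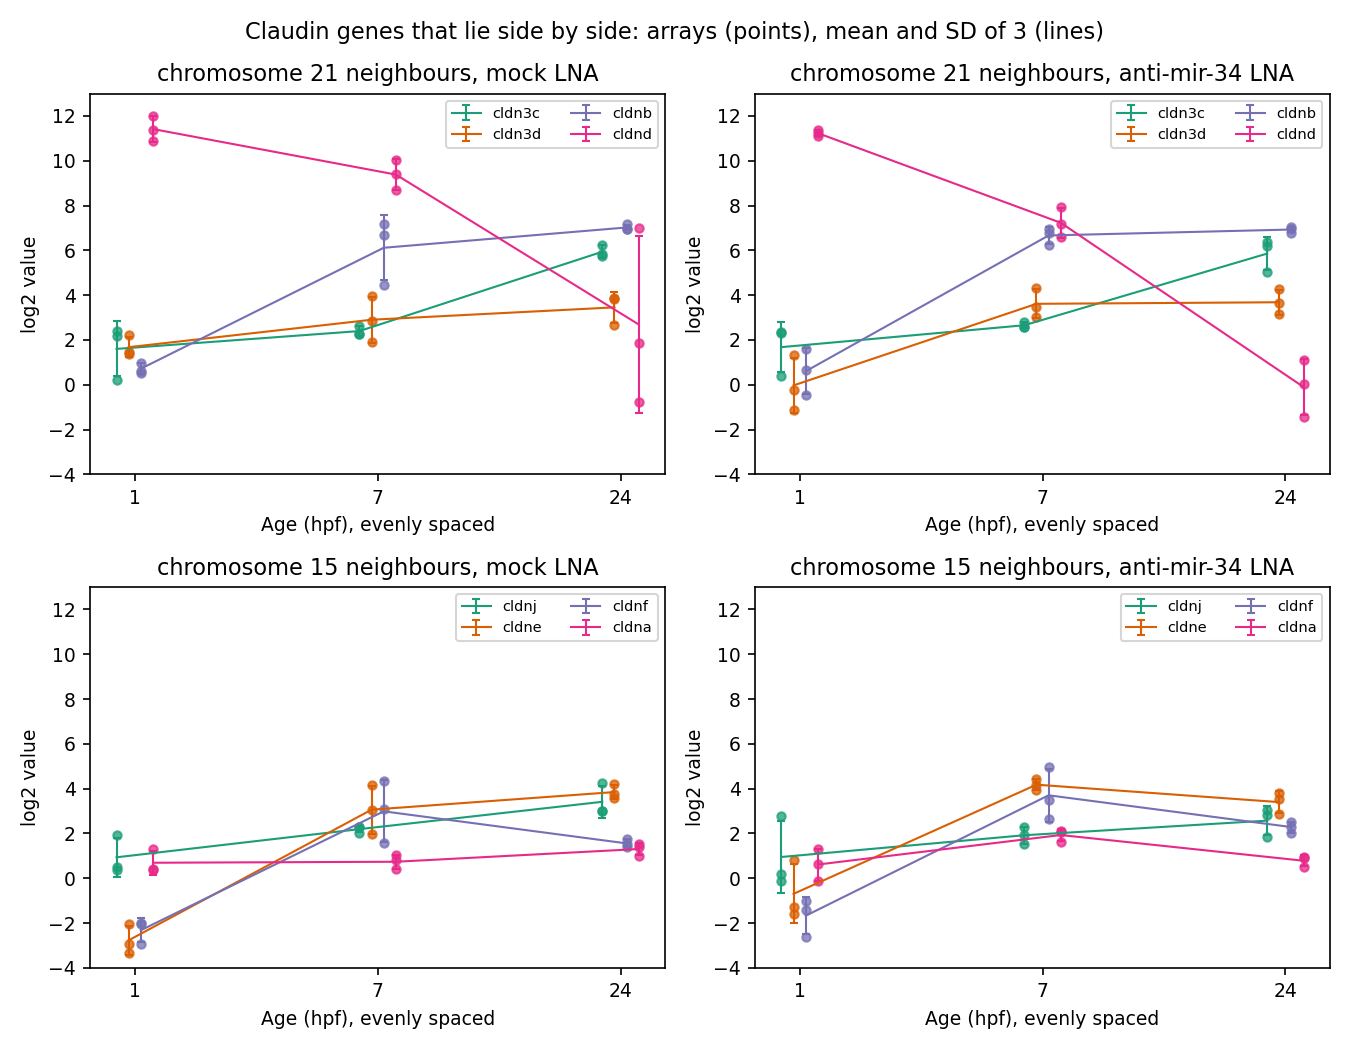
Claudin genes that lie side by side on chromosome 21 (top) and chromosome 15 (bottom): log2 value (vertical) against age (ages evenly spaced) in mock (left) and anti-mir-34 embryos (right). Points are arrays, and lines join group means with SDs of 3 arrays. The cldnd line falls across the rising cldnb and cldn3c lines, and the mock reading of 6.98 lies far above the other cldnd arrays of 24 hpf.

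The probe sets of cldng disagreed. The leading one read 2.90, 2.49 and 3.22 on the mock arrays of 1 hpf, 8.23, 7.34 and 8.41 at 7 hpf and 10.04, 9.66 and 9.83 at 24 hpf. It rose by 5.12 (adjusted p = 2.28e-10) and by 1.85 (adjusted p = 6.13e-05) in mock embryos, and by 6.28 and 0.92 in anti-mir-34 embryos. The second anti-mir-34 call was lost with any of 4 arrays left out (adjusted p of 0.0604 to 0.0909). Probe sets 3 and 4 rose by 4.52 and 5.24 in the first mock step and by 1.51 and 2.27 in the second. The second probe set went the other way, with 11.36, 10.75 and 11.39 at 1 hpf, 9.29, 9.27 and 7.46 at 7 hpf and 2.14, 6.59 and 2.14 at 24 hpf. It fell by 2.49 (-2.49, adjusted p = 0.0327) and by 5.05 (-5.05, adjusted p = 5.22e-05).

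That second probe set followed cldnd rather than the other cldng probe sets. Over the 18 arrays its correlation with cldnd was 0.97 and with the leading cldng probe set -0.85, described without a test since arrays of an age share their level. Over the 12 arrays of 7 and 24 hpf the correlation with cldnd was 0.957. Its mean over all arrays, 6.77, was close to the 6.96 of the leading one, so the choice of probe set decides the sign reported for cldng. With the mean of the 4 probe sets, the second step of cldng was 0.15 in mock and -0.55 in anti-mir-34 embryos. Which transcript the second probe set detects was not tested.

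**Figure D5:**
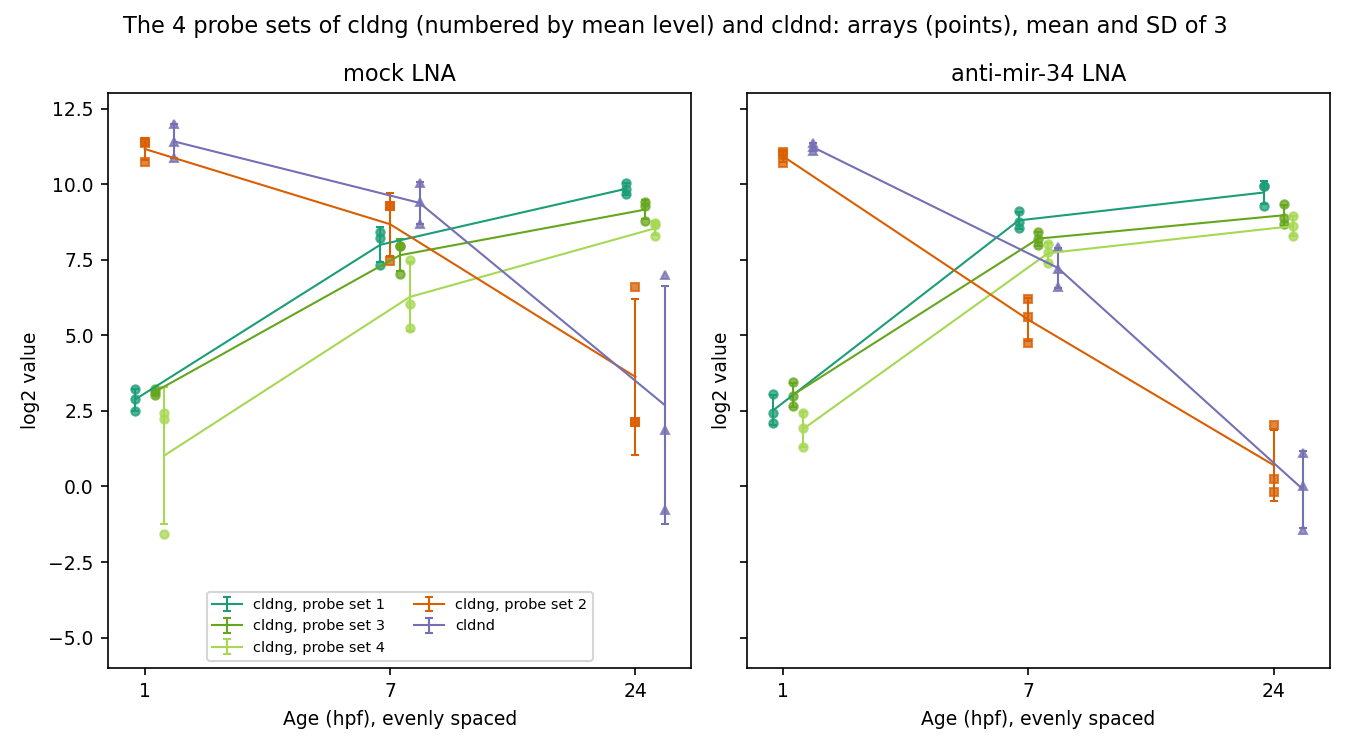
The 4 probe sets assigned to cldng, numbered by mean level, and the probe set of cldnd: log2 value (vertical) against age (ages evenly spaced) in mock (left) and anti-mir-34 embryos (right). Points are arrays, and lines join means with SDs of 3 arrays. Probe sets 1, 3 and 4 rise with age, while probe set 2 falls beside cldnd, including the single high mock array at 24 hpf.

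Zonula occludens genes declined from a maternal level. The gene tjp3 read 7.21, 6.60 and 6.74 on the mock arrays of 1 hpf, 6.17, 5.88 and 4.74 at 7 hpf and 4.55, 4.12 and 4.55 at 24 hpf. The ages did not overlap, and it fell by 1.25 (adjusted p = 0.00539) and by 1.20 (adjusted p = 0.00389). Without mock replicate 3 of 7 hpf the first fall was -0.82 (adjusted p = 0.0451). In anti-mir-34 embryos tjp3 read 6.30, 6.22 and 6.33, then 6.15, 6.30 and 5.93, then 3.72, 3.87 and 4.03. There the first step was -0.16 (adjusted p = 0.723) and the second -2.25 (adjusted p = 1.03e-05). The differences between the injections were 1.09 and -1.06, with adjusted p = 0.317 and 0.514. Without the 2 mock arrays that stood apart, the second mock step of tjp3 was -0.91 and did not pass. The gene tjp2b read 7.05, 7.52 and 7.05, then 6.02, 6.17 and 6.23, then 5.30, 5.94 and 5.58 in mock embryos. It fell by 1.07 (adjusted p = 0.00469) in the first mock step and by 0.74 (adjusted p = 0.0296) in the first anti-mir-34 step, and its second steps, -0.53 and -0.35, did not pass. The weaker tjp2b probe set differed by -0.77 in the first mock step, which did not pass, and fell by 2.18 in the second. The anti-mir-34 call of tjp2b was lost with any of 3 arrays left out (adjusted p of 0.0696 to 0.162).

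Of the 7 protocadherins, cadherin relatives that mediate weaker contacts and sort cells, 3 rose in the first mock step, and 3 rose and 1 fell in the second. Among all genes, 14.3% rose and 13.8% fell in the first mock step, and 20.5% rose and 28.4% fell in the second. Paraxial protocadherin (pcdh8), which marks the mesoderm beside the midline during gastrulation, read 1.89, -0.34 and 2.32 on the mock arrays of 1 hpf, 2.47, 3.14 and 4.21 at 7 hpf and -0.32, 0.21 and -0.21 at 24 hpf. All of these readings but 4.21 lay below the array median, where a log2 difference has no exact size. The gene was highest at 7 hpf, and its fall to 24 hpf was 3.38 (-3.38, adjusted p = 0.000618). Its rise of 1.98 (adjusted p = 0.0465) was lost with any of 4 arrays left out, the largest adjusted p being 0.254 without mock replicate 2 of 1 hpf. In anti-mir-34 embryos pcdh8 read 3.38, 2.34 and 2.26, then 3.62, 2.27 and 4.40, then 1.13, 2.13 and 1.80, and neither step passed (0.77 and -1.74).

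Other protocadherins rose. The gene pcdh19, which acts with N-cadherin in the zebrafish neural plate, read 1.86, 1.89 and 2.35, then 4.54, 3.86 and 5.95, then 6.68, 6.34 and 6.15 in mock embryos. It rose in both mock steps, by 2.75 (adjusted p = 0.000495) and 1.61 (adjusted p = 0.0163), and in the first anti-mir-34 step by 5.13 (adjusted p = 2.04e-07). Its second mock call was lost without mock replicate 2 of 7 hpf (1.15, adjusted p = 0.109) and without mock replicate 1 of 7 hpf or of 24 hpf (adjusted p = 0.0572 and 0.0589). The gene pcdh10a read 1.23, 1.75 and 1.99 at 7 hpf and 5.31, 5.62 and 4.96 at 24 hpf, and rose by 3.64 in mock and 2.75 in anti-mir-34 embryos. Its weaker probe sets differed by 1.26 and 0.36 in the second mock step, and neither passed. Its duplicate pcdh10b rose earlier, by 3.01 and 4.0 in the first step, and its second steps were -0.82 and -0.84. Late rises of 1.60 and 1.91 were also seen for pcdh18a, although its weaker probe set differed by -1.06 in the second mock step. The genes pcdh1a6 and pcdh1b had group means from -0.70 to 1.78 and no call.

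Markers of the nervous system and of muscle rose with the second step, where 20.5% of all genes rose and 28.4% fell in mock embryos. Of 10 genes of the nervous system 7 rose from 7 to 24 hpf in mock embryos and none fell, and their median level went from 2.03 to 2.85 on the mock arrays of 7 hpf to 6.72 to 7.00 at 24 hpf. Of 8 muscle genes 7 rose, with medians of 0.94 to 1.49 and then 9.68 to 9.98. Of 6 vessel genes 1 rose, which is near the share of all genes, and of 4 lens genes 2. The shares of these tissues in the late rises of cdh11, cdh15, cdh17, pcdh10a and pcdh19 were not tested.

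Desmosome genes, which build the other cadherin junction, rose as a block in the first step. Of 11 genes measured, 9 rose in mock and 10 in anti-mir-34 embryos and none fell. Their median log2 difference was 4.25 in mock embryos, where all genes had -0.22. Of all genes, 14.3% rose in that step in mock and 19.8% in anti-mir-34 embryos. The plakophilin gene pkp3a rose by 6.42, the desmoplakin gene dspa by 4.96 and perp by 4.76 in mock embryos. In the second mock step 1 of the 11 rose and 1 fell, where 20.5% and 28.4% of all genes did. Plakoglobin (jupa), the catenin of desmosomes, differed by -1.93 between the injections at 1 hpf (adjusted p = 0.0276). It is named here after its value was seen, and its direction was that of ctnnb2 and opposite to that of ctnnd1. The fit on the 1 hpf groups alone, which called no probe set, did not call it. At 1 hpf, 1 of the 11 desmosome genes (jupa) was called between the injections. Of the 9 outer-layer genes, 1 was called higher in anti-mir-34 embryos at that age. Of all genes, 1.58% were called there in either direction.

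Of 18 partners of the tight junction, 1 rose and 4 fell in the first mock step, where 14.3% of all genes rose and 13.8% fell. In the second 4 rose and 8 fell, where 20.5% of all genes rose and 28.4% fell. The scaffold gene magi1b rose by 4.41 and the adhesion gene jam2a fell by 2.37 in the first step. In the second, lin7a rose by 3.10, magi1a by 2.55 and jam3b by 2.40. The occludin genes oclna and oclnb, named after their values were seen, fell by 1.81 and 1.47 in the second mock step. At 1 hpf jam2a was lower in anti-mir-34 embryos (-1.82, adjusted p = 0.0499), a call that the fit on the 1 hpf groups alone did not make. Of the 18 partners 1 was called there, and of all genes 1.58%. Of 8 partners of the adherens junction, none rose and 1 fell in the first mock step (nectin3b, by 1.89), and 2 rose and 1 fell in the second, the actin cross-linker actn1 rising by 3.69.

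Some factors known to repress or accompany cadherins were called in each step. Among all genes, 14.3% rose and 13.8% fell in the first mock step, and 20.5% rose and 28.4% fell in the second. Of 13 cadherin repressors and mesenchymal genes, 5 rose in the first mock step and none fell, led by the repressor zeb1b (2.50) and the fibronectin genes fn1b (2.48) and fn1a (1.73). In the second step 8 rose and 2 fell, with vim, an intermediate filament of mesenchymal and neural cells, at 5.82, prrx1a at 5.47 and prrx1b at 5.20. The E-cadherin repressor snai1a, named after its values were seen, rose by 1.15 and then fell by 2.69. Of 6 epithelial factors, 3 rose in the first mock step, klf17 by 4.28, grhl1 by 2.45 and the splicing factor esrp1 by 2.44, and klf17 fell by 2.23 in the second. Of 12 genes of beta-catenin signalling, 4 rose in the first mock step, among them the Wnt target sp5l by 6.98. In the second 2 rose and 4 fell, with sp5l at -6.40, and these counts were near the shares of all genes. None of the repressor, epithelial or signalling genes passed between the injections at 1 hpf.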

How the data were processed

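RNA of 18 samples was measured on Affymetrix zebrafish arrays. Judged by their range, the deposited values are log2 values, and per the submitters' processing notes the authors used GCOS. How probes were summarized and normalized was not given in the sources used here. Deposited files hold no detection calls, so low readings cannot be told from background. Samples were grouped by their labels.

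Genes were named from the platform annotation. All 48 symbols matched RefSeq's table (GRCz12tu). Probe sets of several symbols (3 within the rule) were left out. Members and lists were chosen with earlier results of these data known.

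A model with 1 mean per group was fitted to all 18 arrays with limma 3.58.1 in R 4.3.3 (eBayes with an intensity trend), without control probe sets (115) or a filter. Two-sided moderated tests were adjusted by Benjamini-Hochberg over 15502 probe sets (threshold 0.05) and tested on simulated data. With 3 arrays per group, precision is limited. Same-numbered arrays were not treated as pairs: their deviations correlated at -0.04 to 0.28, and no comparison had every correlation above 0.1. Between the injections, however, all 3 numbers correlated best with their own at each age, at 7 hpf with 0.06, 0.28 and 0.25. With a replicate block, 3 probe sets were higher and 15 lower between the injections at 7 hpf, against 0 and 2 in the main fit. What same-numbered arrays shared is not stated in the labels and was not tested.

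Values on single arrays were given for most genes of fixed roles, the 6 largest rises and falls of each mock step, and genes called between injections. For some of these only mock arrays, some ages or group means were given. List genes were limited to the 3 largest per step, apart from those named after their values were seen. Alternatives were 16 added to the signals, a filter on dim probe sets, quantile normalization, eBayes without a trend, a fit on the groups compared, a replicate block, the mean of a gene's probe sets, and arrays left out.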

Additional observations from a re-analysis of the deposited data

Results flagged for a closer look

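The claudin gene cldna differed between the injections in opposite directions at the later ages, with arrays that did not overlap at either. At 7 hpf it read 2.1, 2.07 and 1.61 in anti-mir-34 and 0.40, 0.79 and 1.02 in mock embryos, a difference of 1.19 on the log2 scale (adjusted p = 0.415). At 24 hpf it read 0.90, 0.93 and 0.51 against 1.38, 1.52 and 1.01, a difference of -0.52 (adjusted p = 0.999). The test of the difference between the injections' steps from 7 to 24 hpf gave -1.72 (adjusted p = 0.585). All these readings lie below the array median of 3.68 to 3.69.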

How the results depend on the processing

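Of the 83 calls of members, 61 held with any single array left out and 22 were lost with some array. Besides leaving out 1 array there were 8 alternatives, 1 of them without both mock arrays that stood apart. They were followed for 87 member differences, 83 of them called. New calls of other members, such as cldnd in the first mock step, are therefore not in these totals. Of 632 values, 598 kept their direction and side of the threshold and 32 no longer passed. Of the differences followed, 1 newly passed (cdh1 in the second anti-mir-34 step, fit on the groups compared, adjusted p = 0.0196) and 1 turned. With 16 added to the signals, the members lower in the first mock step were 6 and those lower in the second anti-mir-34 step 12. The latter were 13 in a fit on the groups compared, which has fewer arrays behind its spread. Of all 15502 probe sets, 2309, 2893 and 3270 were lower in these cases, in that order. With the filter on dim probe sets, 3 members were lower in the first anti-mir-34 step, among 28 members kept. Of the 7997 probe sets kept, 2218 were lower there. Between injections at 1 hpf, the fit on the groups compared gave 0 members higher and 0 lower, as for all 15502 probe sets. There eBayes without a trend gave 0 members lower, against 34 of all 15502 probe sets. Leaving out 1 array at a time gave 0 to 4 members lower at 1 hpf and 0 to 4 whose first step differed between injections. The highest of these counts came without anti-mir-34 replicate 2 of 1 hpf, where 365 of all 15502 probe sets were lower at 1 hpf. The change of cdh2 minus cdh1 from 1 to 7 hpf was 2.68 in mock and 3.63 in anti-mir-34 embryos with 16 added, and 2.49 and 3.73 with the mean of all probe sets. Turned signs were cldng in the second anti-mir-34 step (-0.55 with the mean of its probe sets) and cdh1 in the first (from -0.15 to 0.53 with 1 array left out, never called). With a replicate block, which the labels do not call for, 14 members were higher and 3 lower in the first mock step, and 14 and 9 in the second. In anti-mir-34 embryos the counts were 17 and 6, then 11 and 8. Over all 15502 probe sets they were 2161 and 1716, then 3091 and 3681 in mock embryos. In anti-mir-34 embryos they were 3059 and 3158, then 2594 and 3104. No call of the members followed changed. The cause of these changes was not tested. The values have no detection calls, and 3 arrays per group limit the precision.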

Other observations

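Probe sets with several symbols were outside the rule, and 3 of them belonged to these families. The one shared by ctnnd2a and ctnnd2b, duplicates of a neuronal catenin of the p120 group, had mock means of 1.46, 2.77 and 6.37 at 1, 7 and 24 hpf. It rose by 3.60 (limma, adjusted p = 9.41e-05) in the second mock step and by 2.89 (adjusted p = 0.00104) in the anti-mir-34 step. One shared by 14 genes of the pcdh1g cluster of protocadherins had mock means of 0.15, 0.95 and 7.28. Its rise of 6.33 (adjusted p = 7.84e-08) in the second mock step was as large as that of the leading member, cldni (6.21). One shared by 11 genes of the pcdh2 cluster rose by 1.59 (adjusted p = 0.0193). Clustered protocadherins are known for giving neurons their surface identity. None of the 3 probe sets passed between the injections.

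The second probe set of cldng also separated the injections at 7 hpf. It read 4.76, 6.19 and 5.60 in anti-mir-34 and 9.29, 9.27 and 7.46 in mock embryos, a difference of -3.16 that did not pass (adjusted p = 0.132). The leading cldng probe set differed by 0.81 there (adjusted p = 0.303), with the arrays of the 2 injections again not overlapping.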
